A study of Mus musculus with 4 samples.

Results

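The CC chemokine receptors are the cell-surface receptors for chemokines whose first 2 conserved cysteines are adjacent. The genes described are Ccr1, Ccr2, Ccr3, Ccr4, Ccr6, Ccr7, Ccr8, Ccr9 and Ccr10, taken as every probe set that the platform annotation assigns to 1 of these genes and to no other. They amount to 9 of 18193 named genes and to 17 of 45101 probe sets, a probe set being a group of short probes for 1 transcript. The samples were naive T cells from mouse spleen, wild type (WT) or knockout (KO), that were kept for 3 days in Treg-inducing culture, with 2 arrays of each genotype. Treg cells are CD4 T cells that restrain immune responses under the transcription factor Foxp3. The labels name neither the gene that was knocked out nor the mouse strain, age or culture additives, so the level of the targeted gene is not reported and whether the deletion was restricted to T cells is not known here. The labels number the mice of each array, but do not tell whether the cultures were independent. The p-values therefore measure only the spread between these arrays, part of which may be technical.

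CC chemokine receptors span the membrane repeatedly and couple mainly to inhibitory G proteins, through which a chemokine gradient steers cell movement. In T cells the receptor set changes with differentiation. Naive cells use Ccr7 to enter lymph nodes, and effector and regulatory cells take up other receptors that direct them to skin, gut or inflamed tissue. Receptors are usually desensitised by G protein-coupled receptor kinases and arrestins.

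Ccr9, Ccr2, Ccr1 and Ccr4 were higher in KO cells, and the lymph node receptor Ccr7 had a high signal in both genotypes. Ccr9, the gut-homing receptor for Ccl25, rose 19.1-fold. Ccr2, the receptor for Ccl2 and related monocyte-attracting chemokines, rose 9.48-fold on its brightest probe set. Ccr1, a receptor for Ccl3, Ccl5 and related chemokines, rose 3.88-fold, and Ccr4, the receptor for Ccl17 and Ccl22, rose 2.74-fold. Folds are on the log2(signal + 16) scale, where signal is the deposited linear MAS5 value, and they understate the change of dim genes. The words rose, fell and called are used only where the adjusted p was below 0.05 (limma, Benjamini-Hochberg over all tested probe sets).

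A gene was represented by its brightest tested probe set. Of the 9 genes, 4 were called higher in KO cells and none was called lower, 4 did not pass, and Ccr3 lay below the signal filter and was not tested. At an unadjusted p under 0.05, 6 were higher and 0 lower, but the share of all tested genes at that bound is not given here. The shares that follow are at the adjusted threshold. Over all 12547 tested genes 20.3% were called in either direction, 10.5% higher and 9.87% lower. The probe set that stands for Ccr2 passed the filter only through its KO signals, so all genes were also tested with no filter. Then the called members were again Ccr1, Ccr2, Ccr4 and Ccr9, 4 of 9, with 10.6% of 18193 genes called. In that test the median log2 fold change was 0.72 over the 9 receptors and -0.013 over all genes. It does not undo the choice of the Ccr2 probe set, which was the brightest only through its KO signals. On the WT arrays that probe set averaged 7.01, against 40.3 and 24.9 for the other tested Ccr2 probe sets. Neither of those was called. At the level of probe sets, 14 of the 17 were tested and 6 were called, all higher, where 17.1% of 27022 tested probe sets were called, 7.89% higher and 9.17% lower. The groups did not overlap for 7 of the 8 tested receptors and for 62.7% of all tested genes, so a lack of overlap is given below as a description only. In bulk samples fewer cells of a type and less RNA per cell cannot be told apart, and this holds for every value here.

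**Figure D1:**
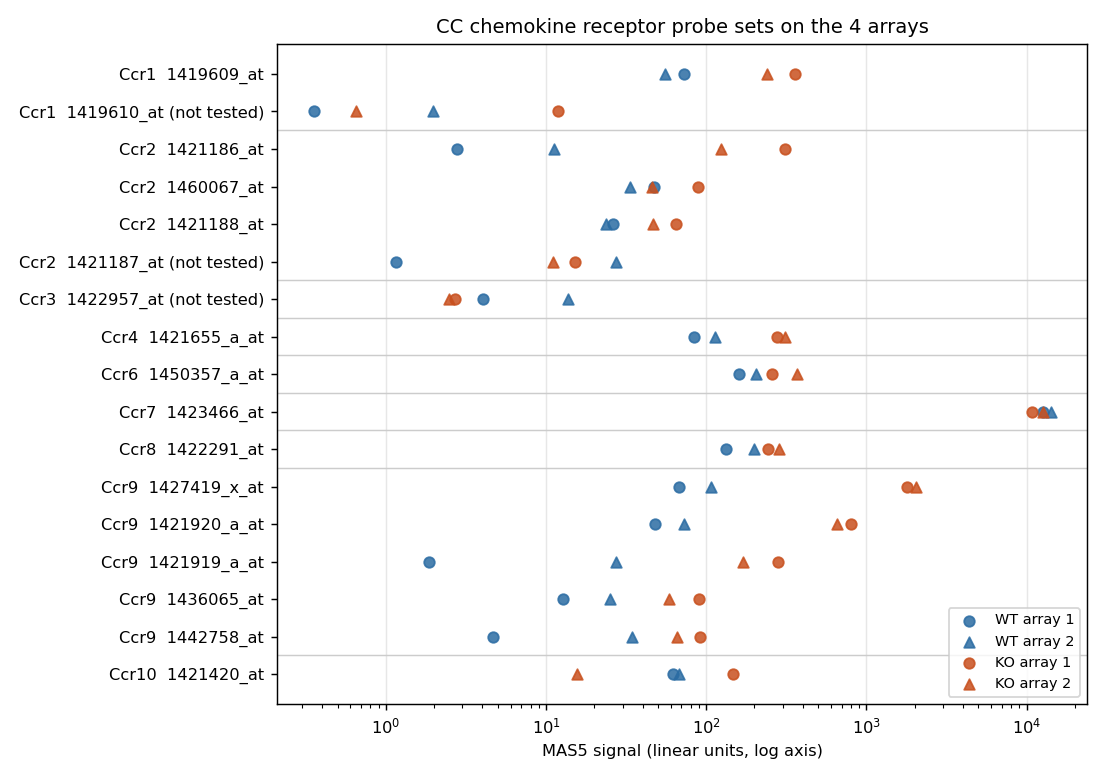
Linear MAS5 signal (log axis) of all 17 receptor probe sets, with 1 point per array, blue for WT and orange for KO, circles for array 1 and triangles for array 2. The brightest Ccr9 probe set lies at 67.2 and 107 on the WT arrays and at 1797 and 2037 on the KO arrays, while Ccr7 lies between 10751 and 14138 on all 4 arrays.

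The sequences before the start sites of the 4 receptors that rose are shown, with that of Ccr3, which was too dim to be tested. Whether these genes share regulation was not tested. The sequences are the 250 bases upstream of the annotated start in RefSeq (GRCm38.p6), written 5′ to 3′ on the strand of the gene. Capitals mark matches on either strand to the letters of 7 short motifs of the AP-1, STAT, RUNX, forkhead, GATA, E-box and MAF kinds. AP-1 and MAF letters can overlap in general, and 0 matches of different motifs overlapped in these windows.
Ccr9, chr9:123766961-123767210, + strand: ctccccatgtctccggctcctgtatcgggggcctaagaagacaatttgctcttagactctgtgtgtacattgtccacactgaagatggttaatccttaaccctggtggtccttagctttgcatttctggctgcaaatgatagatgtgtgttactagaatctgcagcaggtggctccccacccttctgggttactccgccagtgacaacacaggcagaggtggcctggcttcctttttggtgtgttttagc
Ccr1, chr9:123968693-123968942, - strand: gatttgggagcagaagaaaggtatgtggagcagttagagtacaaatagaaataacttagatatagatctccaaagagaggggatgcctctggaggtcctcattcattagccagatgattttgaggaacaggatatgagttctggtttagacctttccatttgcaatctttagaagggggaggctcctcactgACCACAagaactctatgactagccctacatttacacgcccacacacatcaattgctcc
Ccr2, chr9:124101933-124102182, + strand: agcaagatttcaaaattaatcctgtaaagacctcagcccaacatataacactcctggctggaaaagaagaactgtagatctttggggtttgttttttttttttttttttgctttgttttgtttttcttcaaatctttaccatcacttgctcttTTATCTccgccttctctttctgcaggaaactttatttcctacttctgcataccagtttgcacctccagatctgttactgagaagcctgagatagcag
Ccr4, chr9:114496545-114496794, - strand: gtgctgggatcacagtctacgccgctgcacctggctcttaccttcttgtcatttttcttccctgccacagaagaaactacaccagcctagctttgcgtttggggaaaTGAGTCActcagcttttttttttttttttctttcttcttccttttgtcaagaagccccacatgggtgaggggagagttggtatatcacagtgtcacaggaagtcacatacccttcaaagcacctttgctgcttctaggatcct
Ccr3, chr9:124021721-124021970, + strand: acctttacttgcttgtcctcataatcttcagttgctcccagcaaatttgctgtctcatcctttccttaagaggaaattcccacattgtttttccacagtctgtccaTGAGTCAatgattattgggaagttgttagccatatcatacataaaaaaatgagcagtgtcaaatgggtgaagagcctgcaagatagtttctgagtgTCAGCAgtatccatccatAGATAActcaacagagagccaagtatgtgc

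Of the 9 genes, 7 had an entry in the RefSeq promoter table, Ccr6 with 2 start sites, and Ccr7 and Ccr10 had none. For AP-1 the letters searched were TGANTCA, and the match stood 143 to 137 bases before the start of Ccr4 and 144 to 138 bases before that of Ccr3. That motif was found in 2 of the 8 receptor windows and in 6.75% of 32851 windows of the same length. The GATA letters AGATAA were found in 4 of 8 windows, those of Ccr2, Ccr3, Ccr6 and Ccr8, against 9.99% of all windows. The MAF letters TGCTGA, part of its site, were found in 3 windows (Ccr3, Ccr6 and Ccr8), against 16.1% of all. The RUNX letters TGTGGT were found in the Ccr1 window alone of the 8, and in 14% of all windows. The STAT letters TTCNNNGAA were found in 1 Ccr6 window and in 7.02% of all windows. Neither the forkhead letters GTAAACA, held by 3.17% of all windows, nor the E-box letters CACGTG, held by 6.02%, were found in a receptor window, and the Ccr9 window held none of the 7. The receptor windows held from 37.2% (Ccr2) to 53.6% (Ccr8) G or C bases, and the median of all windows was 52.4%. All receptor windows but that of Ccr8 lay below this median, and the shares above were not adjusted for it. The matches are descriptions of letters and not measured binding.

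Ccr9 had the largest log2 fold change of the 8 tested receptors with 16 added to the signals, but with 1 added Ccr2 was at 4.86 and Ccr9 at 4.48. Its brightest probe set measured 67.2 and 107 on WT arrays 1 and 2 and 1797 and 2037 on KO arrays 1 and 2. The groups did not overlap, and both KO arrays lay far above both WT arrays. The mean signal was 87.2 ± 28.2 in WT and 1917 ± 170 in KO cells (± SD, n = 2 per group), and the log2 fold change was 4.25 ± 0.22 (SE; limma, adjusted p = 1.6e-05). By log2 fold change Ccr9 ranked 40 from the top among the 12547 tested genes. This probe set carries the suffix that the manufacturer gives to probes that may bind other transcripts as well.

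The other Ccr9 probe sets pointed the same way. The second in brightness, which lacks that suffix, went from 60.2 ± 17.4 to 729 ± 108 (log2 fold change 3.30 ± 0.25, limma, adjusted p = 9.83e-05). Another went from 14.6 ± 18.1 to 225 ± 79.2 (3.08 ± 0.49, limma, adjusted p = 0.00373). The other pair were dim, at log2 fold changes of 1.53 ± 0.52 and 1.37 ± 0.44, and neither passed (limma, adjusted p = 0.0801 and 0.0668). On all 5 probe sets the lower KO array lay above the higher WT array, and groups did not overlap at 60.2% of all tested probe sets. Those with WT means of 14.6, 18.9 and 19.6 lay below the signal filter in WT and were tested only through their KO signals. The direction of these probe sets therefore adds little. With the mean of the 5 as the value of the gene the log2 fold change was 2.71 (limma, adjusted p = 0.00144). The size of the difference thus depends on the probe set, and the folds of the 5 ran from 2.58 to 19.1.

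**Figure D2:**
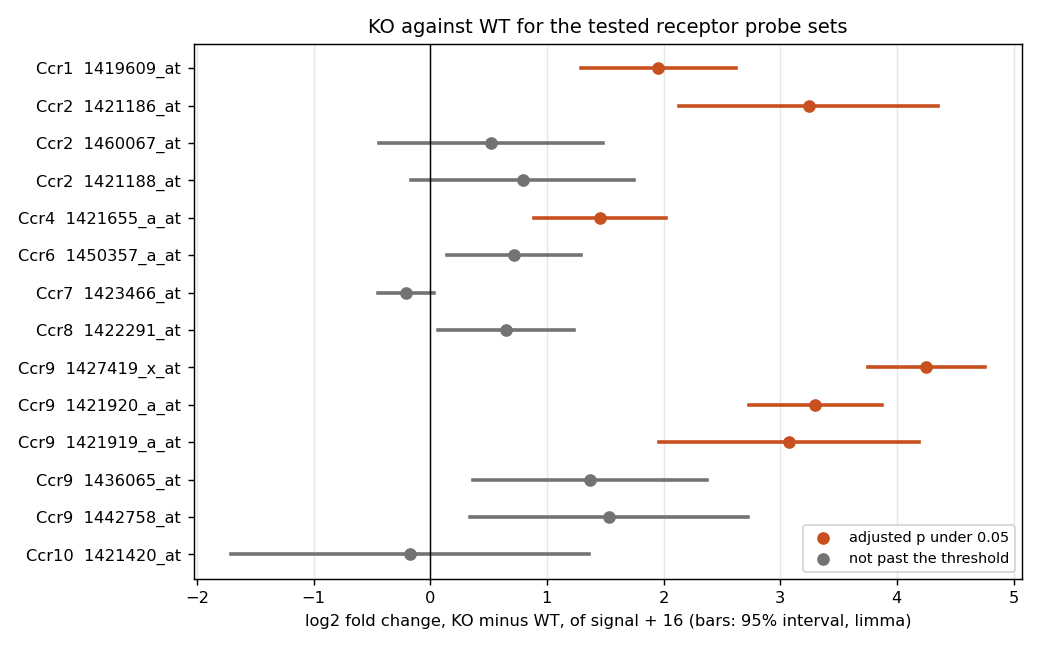
Log2 fold change of KO against WT (points, signal + 16) with its 95% interval from limma (bars) for the 14 tested receptor probe sets, orange where the adjusted p was below 0.05. The 5 Ccr9 probe sets lie between 1.37 and 4.25, all right of 0, while of the 3 Ccr2 probe sets only the brightest, at 3.24, is past the threshold.

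Gut homing of T cells uses Ccr9 together with the alpha4beta7 integrin. Itga4, the alpha4 integrin subunit, fell from 993 ± 58.1 to 387 ± 17.8 (log2 fold change -1.32 ± 0.15, limma, adjusted p = 0.000747). Itgb7, its beta7 partner in binding gut endothelium, was at 3482 ± 221 in WT and 3822 ± 305 in KO cells and did not pass (0.13 ± 0.11, limma, adjusted p = 0.456). Retinoic acid is known to induce Ccr9 in T cells. Its receptor gene Rara did not pass either (0.40 ± 0.24, limma, adjusted p = 0.302), and Aldh1a2, which makes retinoic acid, was too dim to be tested, at 2.59 to 25.8 over the 4 arrays. The ligand gene Ccl25 was at 128 ± 22.5 in WT and 107 ± 39.2 in KO cells and did not pass.

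Ccr1, Ccr2 and Ccr3 are receptors of inflamed tissue, known mostly from myeloid cells and effector T cells. For Ccr1 the tested probe set measured 73.0 and 54.9 on WT arrays 1 and 2 and 357 and 239 on KO arrays 1 and 2. The groups did not overlap, and KO array 1 was the highest. Mean signals were 63.97 ± 12.8 and 298 ± 83.3, and the log2 fold change was 1.96 ± 0.29 (limma, adjusted p = 0.00284). A second Ccr1 probe set stayed below 12 on all arrays and was not tested.

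The brightest Ccr2 probe set measured 2.76 and 11.2 on the WT arrays and 311 and 124 on KO arrays 1 and 2. The WT signals were near the bottom of the scale, and KO array 1 stood well above KO array 2. Means were 7.01 ± 6.00 and 218 ± 132, and the log2 fold change was 3.24 ± 0.48 (limma, adjusted p = 0.00285). It was 4.86 with 1 in place of 16 as the added constant and 1.91 with 64, and 3.86 without KO array 2. Without KO array 1 the probe set fell below the signal filter and was not tested. The other Ccr2 probe sets gave less. One went from 40.3 ± 10.1 to 67.2 ± 30.4 with overlapping groups (0.52 ± 0.42, limma, adjusted p = 0.439). Another went from 24.9 ± 1.77 to 55.4 ± 13.0 without overlap (0.79 ± 0.42, limma, adjusted p = 0.239), and the fourth was too dim to be tested. Ccr2 was thus called on 1 of 3 tested probe sets.

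Ccr3, the eotaxin receptor of eosinophils and basophils, measured 4.04 and 13.7 in WT and 2.69 and 2.47 in KO cells. Both KO signals lay below both WT signals. All 4 lay below the mean signal of 33.2 at which the filter began to keep probe sets, and with no filter its difference did not pass (limma, adjusted p = 0.557).

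Ccr4 and Ccr8 are receptors of skin-homing and Th2 cells and are prominent on Treg cells. Ccr4 measured 84.3 and 113 on the WT arrays and 278 and 312 on the KO arrays. The groups were far apart relative to their spread, at 98.5 ± 20.1 and 295 ± 24.1 (log2 fold change 1.45 ± 0.25, limma, adjusted p = 0.0054). Ccr8 measured 133 and 199 on the WT arrays and 244 and 286 on the KO arrays. Its groups did not overlap either, but its difference did not pass (0.65 ± 0.25, 95% interval 0.07 to 1.23, limma, adjusted p = 0.12). Whether the changes of Ccr4 and Ccr8 differ from each other was not tested.

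Ccr6, the Ccl20 receptor found on Th17 cells and on some Treg cells, measured 159 and 206 on the WT arrays and 257 and 370 on the KO arrays. KO array 2 was the highest, and the groups did not overlap. The log2 fold change of 0.72 ± 0.25 (95% interval 0.15 to 1.29) did not pass (limma, adjusted p = 0.0861). Without KO array 1 it was 0.97 and passed (limma, adjusted p = 0.0488), and without KO array 2 it was 0.47 (limma, adjusted p = 0.319).

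Ccr7 guides naive and central memory T cells into lymph nodes in response to Ccl19 and Ccl21. It measured 12755 and 14138 on the WT arrays and 10751 and 12598 on the KO arrays. The KO arrays were the lower pair, although the nearest arrays of the groups differed by little. The means were 13447 ± 978 and 11675 ± 1306, and the log2 fold change of -0.21 ± 0.11 (95% interval -0.45 to 0.036) did not pass (limma, adjusted p = 0.227). Without KO array 2 it was -0.32 and passed (limma, adjusted p = 0.0393). Klf2, a quiescence factor that also maintains lymph node homing, fell in the same cells from 11420 ± 850 to 4469 ± 160 (log2 fold change -1.35 ± 0.10, limma, adjusted p = 8.05e-05). S1pr1, the receptor for leaving lymph nodes and a known Klf2 target, did not pass (0.27 ± 0.14, limma, adjusted p = 0.213), nor did Foxo1, a factor upstream of Klf2 and Ccr7 (0.33 ± 0.10, limma, adjusted p = 0.0543).

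Ccr10, the receptor for the epithelial chemokines Ccl27 and Ccl28, had no interpretable direction. Its WT signals of 61.8 and 67.6 lay between KO array 2 at 15.7 and KO array 1 at 146. The log2 fold change of -0.17 ± 0.67 (limma, adjusted p = 0.895) turned to 0.008 with 64 as the added constant and to 1.01 without KO array 2. Its 95% interval of -1.70 to 1.36 leaves large changes in either direction within reach of these arrays.

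**Figure D3:**
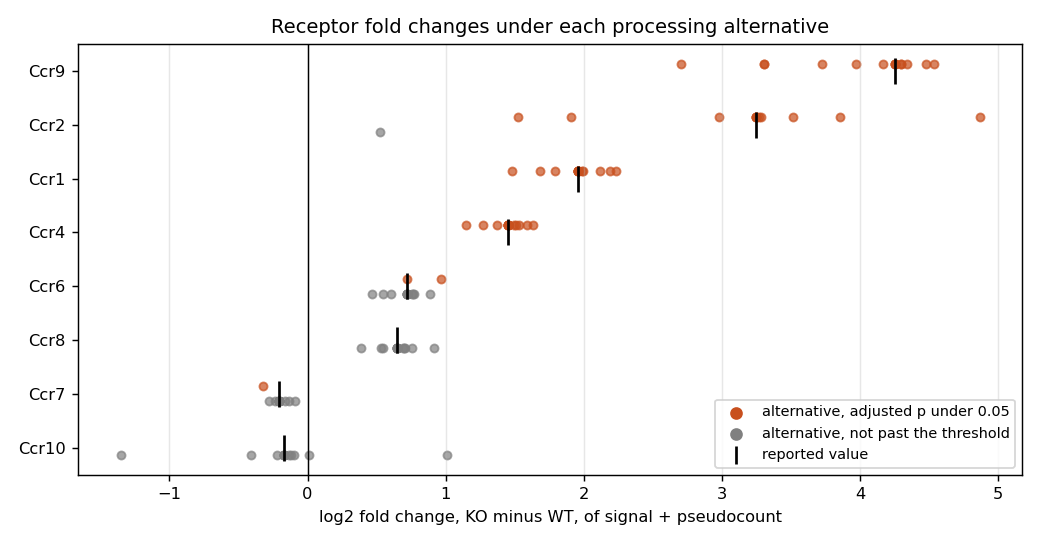
Log2 fold change of each tested receptor gene as reported (black bar) and under each processing alternative (points), orange where the adjusted p was below 0.05 and grey where not. Ccr9, Ccr1 and Ccr4 stay past the threshold at every point drawn, Ccr2 has 1 grey point at 0.52, and the points of Ccr10 run from -1.35 to 1.01.

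The genes share a genomic arrangement that their choice did not use. Of the 9, 6 lie on mouse chromosome 9, and 4 of these belong to a cluster in which RefSeq orders the protein-coding genes as Lztfl1, Ccr9, Fyco1, Cxcr6, Xcr1, Ccr1, Ccr1l1, Ccr3 and Ccr2. Ccr6 lies on chromosome 17, and Ccr7 and Ccr10 on chromosome 11. The cluster was examined after the values of the receptors were known. Its chemokine receptor gene Cxcr6, the receptor for Cxcl16, was also called, with 141 and 160 on the WT arrays and 2880 and 1840 on KO arrays 1 and 2 (log2 fold change 3.80 ± 0.22, limma, adjusted p = 2.51e-05). The genes that flank Ccr9 and encode no receptor did not pass. These were Lztfl1 (0.45 ± 0.15, limma, adjusted p = 0.0789) and Fyco1 (0.21 ± 0.16, limma, adjusted p = 0.414). Xcr1, Ccr1l1 and Ccr3 were too dim to be tested. Of the 6 tested genes of this stretch 4 were called higher, where 10.5% of all tested genes were, but 3 of these are the receptors already counted and Cxcr6 is the only other.

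Ligands of the receptors that rose were themselves partly higher in KO cells. Of 19 CC chemokine ligand genes on the list, 18 had a probe set, 12 were tested, 6 rose and none fell, where 10.5% of all tested genes were called higher and 9.87% lower (limma; at an unadjusted p under 0.05 only Ccl22 was lower). The median log2 fold change of the 12 was 1.21, where that of all tested genes was -0.026. This list and those below were written with earlier results of these data known, so their shares are descriptions only. Ccl3 rose from 251 ± 112 to 5227 ± 1068 (20.4-fold, limma, adjusted p = 3.54e-05), Ccl4 from 244 ± 21.1 to 3654 ± 244 (14.1-fold) and Ccl9 from 96.0 ± 58.6 to 2264 ± 702 (21.4-fold). Ccl3 and Ccl9 are ligands of Ccr1, as are Ccl5, which rose 10.4-fold, and Ccl6, which rose 28.9-fold from WT signals of 10.7 and 53.7. Ccl2, the main Ccr2 ligand, rose 3.73-fold from 8.14 and 56.1 on the WT arrays to 142 and 137 on the KO arrays (limma, adjusted p = 0.0369). Ccl6 and Ccl2 had WT means below the signal filter and were tested only through their KO signals.

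No ligand of Ccr4 or Ccr8 was called. Ccl22 measured 807 and 4064 on the WT arrays and 591 and 425 on the KO arrays. WT array 2 stood far above the others, and the difference did not pass (-1.82 ± 0.59, limma, adjusted p = 0.0684). Ccl17 did not pass (-0.11 ± 0.36), nor did Ccl1, the Ccr8 ligand (0.52 ± 0.17, limma, adjusted p = 0.0668). Ccl20, the Ccr6 ligand, and Ccl11 and Ccl24, ligands of Ccr3, were too dim to be tested.

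**Figure D4:**
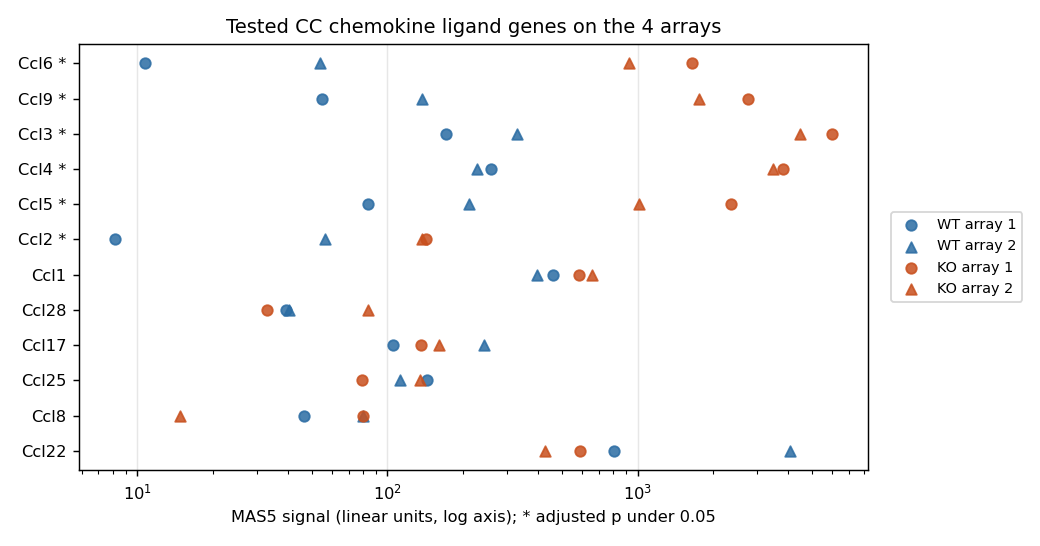
Linear MAS5 signal (log axis) of the 12 tested CC chemokine ligand genes on the 4 arrays, ordered from the highest to the lowest log2 fold change, with blue for WT, orange for KO and an asterisk for an adjusted p below 0.05. The 6 genes with an asterisk have both KO points right of both WT points, and WT array 2 of Ccl22 lies at 4064.

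Decoy and accessory receptors were not called. Of 5 such genes 4 were tested with limma and 0 passed, nor did any at an unadjusted p under 0.05. Ccrl2, which binds chemerin, was at -0.41 ± 0.29, and the scavenger receptor genes Ackr1, Ackr2 and Ackr4 lay between -0.13 and 0.20.

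Of 21 genes of signal transduction below the receptors 18 were tested, 4 rose, 1 fell and 13 did not pass. The share called, 27.8%, was near the 20.3% of all tested genes. Gng2, a G protein gamma subunit, rose from 3274 ± 353 to 6261 ± 350 (0.93 ± 0.11, limma, adjusted p = 0.000959). Pik3cg, the lipid kinase activated by G protein beta-gamma subunits, rose by 0.94 ± 0.13, and the arrestin gene Arrb1 rose by 0.60 ± 0.10. Grk5, a kinase that desensitises receptors, fell from 191 ± 2.98 to 95.3 ± 16.5 (-0.90 ± 0.26, limma, adjusted p = 0.0476). Gnai2, the main inhibitory G protein of lymphocyte migration, was at -0.19 ± 0.08 and did not pass.

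Genes of the migration machinery moved both ways. All 17 were tested, with 4 higher, 4 lower and 9 that did not pass, where 10.5% of all tested genes were called higher and 9.87% lower. Elmo1, which activates Rac with Dock2, rose from 1101 ± 81.3 to 2692 ± 309 (1.28 ± 0.13, limma, adjusted p = 0.000448). The adhesion GTPase gene Rap1a rose by 0.79 ± 0.09 and the integrin gene Itgal by 0.57 ± 0.10. Beside Itga4, the kinase gene Stk4 (-0.60 ± 0.10) and Ezr, which ties membrane proteins to actin (-0.47 ± 0.09), fell.

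Of 20 transcription factors and partners known to go with receptor expression 17 were tested, 7 rose, 2 fell and 8 did not pass. The share called was 52.9%, against 20.3% of all tested genes, and the median log2 fold change was 0.43. The list was written with earlier results of these data known, so its share is a description only. Maf, a factor of Th2, Th17 and Il10-producing cells, rose from 324 ± 89.0 to 5419 ± 462 (4.02 ± 0.18, limma, adjusted p = 9.64e-06). Ahr, the aryl hydrocarbon receptor, rose by 2.53 ± 0.20 and Irf4, a factor of effector Treg and Th2 cells, by 1.48 ± 0.12. The genes that fell were Klf2 and Foxp3, the latter from 2105 ± 102 to 1024 ± 109 (-1.03 ± 0.13, limma, adjusted p = 0.00123).

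Markers of other leukocytes that carry these receptors also moved with genotype. Over all tested genes 10.5% were called higher and 9.87% lower. Of 7 mast cell and basophil markers 6 rose (Cpa3, Fcer1a, Mcpt8, Gata2, Hdc and Ms4a2), Kit did not pass, and the summed signal was 797 to 1047 on the WT arrays and 8885 to 13650 on the KO arrays. Of 6 monocyte and macrophage markers with a probe set 4 rose (Adgre1, Lyz2, Cd14 and Cd68), Csf1r did not pass and Itgam was at 13.2 to 42.7. Their sums were 394 to 543 in WT and 1415 to 1660 in KO cells. Of 4 eosinophil markers Prg2 and Epx rose, Siglecf and Il5ra were too dim to be tested, and sums were 22.9 to 75.1 and 2062 to 5466. Of 5 neutrophil markers S100a8 and S100a9 rose, Elane did not pass and Camp and Mpo were too dim, with sums of 81.2 to 132 and 977 to 1998. Cpa3, Fcer1a, Hdc, Ms4a2, Prg2, Epx, S100a9 and Elane had WT means below the signal filter and were tested only through their KO signals. A test of such a gene could hardly have found a fall. Of 4 NK markers Klrd1 and Tyrobp rose, while Ncr1 and Klra1 were too dim, with sums of 225 to 448 and 2280 to 3526. Cd8a, Cd8b1 and Gzmk rose among 4 CD8 T cell markers, with sums of 2046 to 2156 and 4681 to 7740. None of 4 tested B cell markers and none of 3 tested dendritic cell markers was called (limma), and at an unadjusted p under 0.05 Blk alone of these was higher, with sums of 536 to 1242 and 838 to 1265 for B cells and of 235 to 470.3 and 384 to 390 for dendritic cells.

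T cell transcripts were abundant on all arrays. The shares of all tested genes called, 10.5% higher and 9.87% lower, apply to the counts here as well. Of 5 CD4 T cell markers with a probe set Cd3g, Cd3e and Cd3d rose, Cd5 fell and Cd4 did not pass, and the sums were 34990 to 36210 in WT and 50080 to 53490 in KO cells. KO array 1 exceeded KO array 2 in the sums of all 9 marker lists, though by little for dendritic cells (389.6 against 383.7). KO array 1 also exceeded KO array 2 for Ccr1, Ccr2 and Ccr10, and for the other 4 Ccr9 probe sets (806 against 653 on the brightest of them). Ccr4, Ccr6, Ccr7, Ccr8 and the brightest Ccr9 probe set were higher on KO array 2. On WT arrays 1 and 2 the monocyte and macrophage sums were 394 and 543. There Ccr1 was at 73.0 and 54.9, and the brightest Ccr2 probe set at 2.76 and 11.2. The part of these other cell types in the receptor changes was not tested.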

How the data were processed

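Expression was read from 4 single-colour Affymetrix arrays, 2 WT and 2 KO. Per the labels' protocols, Trizol was used to extract RNA, and 6 micrograms of it were turned into biotinylated cRNA. The deposited values are linear intensity values per probe set. The submitters' processing notes name MAS5, and its version is not given in the sources used here. The mean after leaving out the outer 2% at each end was 500.0 on every array, so a difference in total RNA per cell would have been removed. Array medians lay between 56.3 and 62.5. MAS5 signals of dim probe sets scatter widely, and detection calls were not used here.

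The platform annotation named 1 gene for 34958 probe sets, several for 932 and none for 9211, and all 9 receptor genes were found in the RefSeq table of GRCm38.p6. The 64 control probe sets were removed, signals were transformed as log2(signal + 16), and the lowest 40% of probe sets by mean were dropped, leaving 27022. The difference between KO and WT was fitted in limma 3.58.1 under R 4.3.3 (lmFit, then eBayes with an intensity trend; two-sided), and p-values were adjusted by Benjamini-Hochberg over every probe set tested. Residual degrees of freedom were 2 and prior ones 6.41. With 2 arrays a side, an exact permutation test can give no two-sided p below 0.333. The median log2 fold change over the tested probe sets, -0.079, was not subtracted. The fit was tested on simulated data.

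The receptors and lists were chosen with earlier results of these data known. The rule named all receptors, up to 3 called genes per direction and list with the smallest p, and called markers. Any further gene was picked with its values in view. Close relatives of the family can share signal. Alternatives were other pseudocounts, filters and normalizations, no trend, a replicate block, other probe set choices and leaving out each array.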

Additional observations from a re-analysis of the deposited data

How the results depend on the processing

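Ccr9, Ccr1 and Ccr4 kept their direction and stayed past the threshold in all 15 alternatives run for each, with log2 fold changes of 2.71 to 4.54, 1.48 to 2.23 and 1.15 to 1.63. Without the intensity trend their adjusted p-values were 0.0202, 0.0417 and 0.0419, and that of Ccr2 was 0.0473. Ccr2 kept its call in 12 of 13 alternatives, but its size varied. With the mean of its tested probe sets as the value of the gene, Ccr2 was at 1.52 (limma, adjusted p = 0.0416), against 3.24 as reported. With its second brightest probe set, a choice made after seeing the data, it was at 0.52 and did not pass, and it gave no value with a filter of 60% or without KO array 1. Ccr10 gave none with a filter of 60%. It turned to 0.00795 with a pseudocount of 64, and when single arrays were left out it ran from -1.35 to 1.01. Leaving out single arrays gave 0.47 to 0.97 for Ccr6 and -0.32 to -0.092 for Ccr7. In the alternatives that kept all 4 arrays, the receptor genes called numbered 3 to 5, with 0 of them lower. The lowest number came with a filter of 60% and with the second brightest probe set, and the highest with the replicate block. Without KO array 1 the 4 called were Ccr1, Ccr4, Ccr6 and Ccr9.

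The array numbers are shared by both genotypes but mark separate mice. Deviations of same-numbered arrays from their group means correlated at 0.0103, so the numbers were not taken as pairs. With the replicate block Ccr6 passed at the same log2 fold change of 0.72 (limma, adjusted p = 0.0428), and no other receptor changed its call.

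Over all probe sets 4608 were called, 2131 higher and 2477 lower. Without the intensity trend 1183 were called, 727 higher and 456 lower. Leaving out single arrays gave 2575 to 4484 calls, 1542 to 1824 higher and 1033 to 2660 lower. The cause of these shifts was not tested. Dim signals scatter widely, and with 2 arrays per group the 95% interval of Ccr10 ran from -1.70 to 1.36.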
